A study of Mus musculus with 27 samples.

Results

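The polypyrimidine tract binding proteins and the proteins that help them to repress exons were followed through every treatment and fraction of a knockdown study in mouse embryonic stem cells. The genes were Ptbp1, Ptbp2 and Ptbp3, the corepressors Raver1 and Raver2, and Matr3, and they were taken from the deposited table of gene levels by symbol. These 6 symbols matched 7 of its 53379 gene rows, since Raver1 stood there under a pair of identifiers. The values are TPM, a transcript level corrected for length and scaled so that all libraries have an equal total. All 7 rows reached 1 TPM in 3 or more of the 27 libraries, the filter on low values, as did 20611 genes in all.

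The cells were E14, a mouse embryonic stem cell line grown with LIF on gelatin. They received siRNA to Ptbp1 and Ptbp2 together (siPTBP1+siPTBP2, called the double knockdown here), siRNA to Ptbp1 alone (siPTBP1), or siRNA to eGFP as a negative control (siGFP). A further transfection followed after 24 h, and the cells were fractionated at 48 h. The polyA+ RNA of the chromatin-associated (CH), nucleoplasmic (NP) and cytoplasmic (CY) fractions was sequenced in 3 biological replicates each, which gave 9 groups. All groups shared the cell line, the transfection and the culture conditions. The knockdown is transient and acts on RNA, so the levels below are RNA levels, and no protein was measured in these libraries.

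PTBP1 binds pyrimidine-rich sequence beside exons and represses their use, including many exons that neurons use. PTBP2 is its paralog, which replaces it as neural progenitors become neurons, and PTBP3 is the family member known from haematopoietic cells. RAVER1 and RAVER2 bind PTBP1 through a short peptide motif and act with it as corepressors, and matrin 3, the product of Matr3, is a nuclear matrix protein that binds PTBP1 through a similar motif.

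The family keeps itself in check through a short exon. PTBP1 promotes skipping of this exon in its own transcripts and in those of Ptbp2, and transcripts without it are out of frame and are removed by nonsense-mediated decay. The exon is shown for the 3 paralogs because it is the element through which lower PTBP1 is known to raise PTBP2. It is 34 bases long and is exon 10 of 14 in the coding transcript used for each gene (GENCODE M21 annotation, GRCm38, the same assembly as mm10). Capitals mark the 19 positions at which all 3 paralogs have the same base.
Ptbp1, chr10:79862014-79862047, plus strand: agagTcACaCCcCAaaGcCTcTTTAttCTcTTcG
Ptbp2, chr3:119724612-119724645, minus strand: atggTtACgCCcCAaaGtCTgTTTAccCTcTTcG
Ptbp3, chr4:59485339-59485372, minus strand: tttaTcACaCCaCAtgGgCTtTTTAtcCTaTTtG
Ptbp1 and Ptbp2 shared 26 of the 34 bases, Ptbp1 and Ptbp3 22, and Ptbp2 and Ptbp3 21. The annotation held 2 transcripts that skip the exon for Ptbp1, both marked as targets of nonsense-mediated decay, 3 for Ptbp2, of which 2 were so marked, and 0 for Ptbp3. The deposited levels are sums per gene and do not separate transcripts with the exon from those without it.

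The libraries held 11837 to 19509 genes with at least 1 TPM, and the sequencing depth is unknown, since TPM does not keep it. All 8 stem cell markers (Pou5f1, Nanog, Sox2, Esrrb, Zfp42, Klf4, Dppa5a and Utf1) had a mean of at least 1 TPM, and their sum lay between 1063 and 4510 TPM per library. The neuronal markers Tubb3, Map2, Snap25, Syt1 and Rbfox3 summed to 66.2 to 286 TPM, the fibroblast markers Col1a1, Col1a2, Thy1, Postn and Col3a1 to 6.64 to 155 TPM, and the primitive endoderm markers Gata6, Gata4, Sox17 and Sox7 to 1.79 to 6.85 TPM. The nuclear noncoding RNAs Malat1, Neat1, Kcnq1ot1 and Meg3 summed to 1235 to 3095 TPM in CH, 137 to 349 in NP and 35.9 to 67.4 in CY. Mitochondrially encoded RNA took 0.511% to 1.68% of the TPM in CH, 9.31% to 22.5% in NP and 0.0416% to 0.111% in CY. The replicate 1 libraries stood apart from the others. They held the lowest value of the group in 9 of 9 groups for Ptbp2, Ptbp3 and Matr3 and in 8 of 9 for Raver2, and the highest in 7 of 9 for Ptbp1 and Raver1. Over the 9 groups the median coefficient of variation was 53.2% for Ptbp2, 51.1% for Matr3, 43.3% for Ptbp3 and 39.0% for Raver2, against 25.2% for Ptbp1 and 22.9% for Raver1. Results are therefore also given within replicate numbers and, where it changes a call, with the replicate number as a block in the fit.

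**Figure D1:**
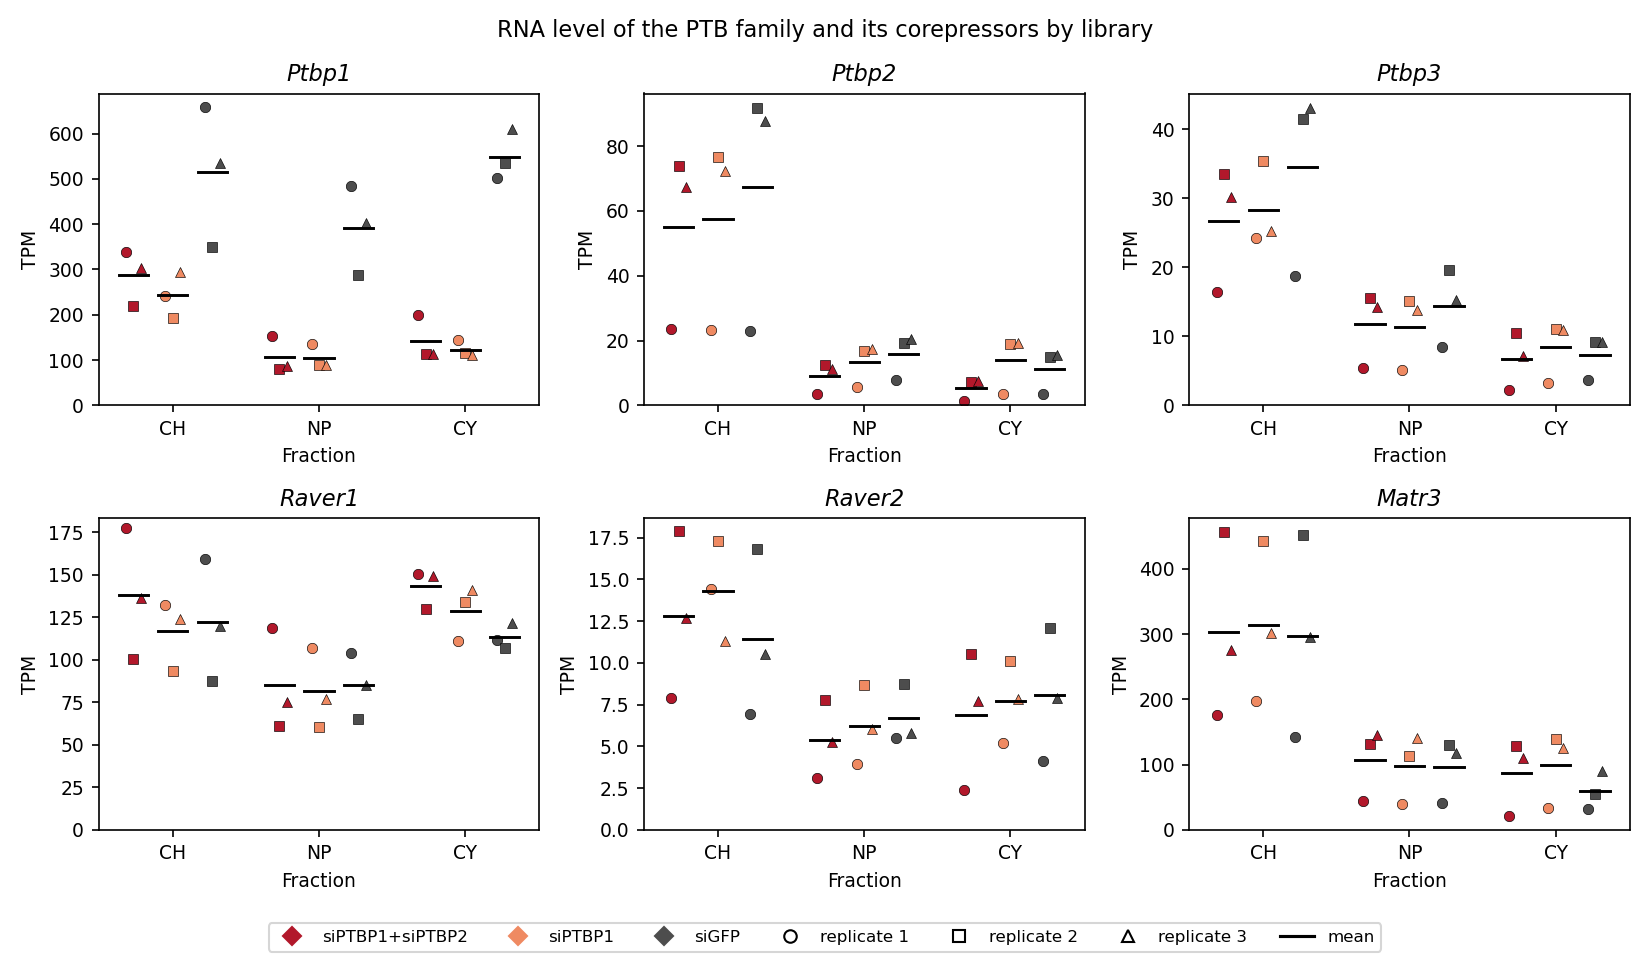
TPM of each gene in each of the 27 libraries, by fraction (CH, NP, CY) and treatment (colour), with the replicate number as the symbol and the group mean of 3 libraries as the bar. Ptbp1 lay between 79.4 and 659 TPM with siGFP highest in each fraction, and the circles of replicate 1 were the lowest of every group for Ptbp2, Ptbp3 and Matr3.

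Ptbp1, the targeted repressor, was lower after both siRNA treatments in every fraction, least so in CH. Ptbp1 (ENSMUSG00000006498) lies on chromosome 10, 79854427 to 79864771, plus strand, and overlaps the antisense genes Plppr3 and Gm17134. The library kit keeps strand, but the sources used here do not say whether the quantification used it. In CY Ptbp1 had 200.2, 114 and 113 TPM in the double knockdown and 144, 115 and 110.4 TPM after siPTBP1, against 502, 534 and 611 TPM in siGFP (replicates 1, 2 and 3 in this order, here and below). In NP it had 153, 79.4 and 87.1 TPM in the double knockdown and 136, 88.6 and 89.2 TPM after siPTBP1, against 484, 287 and 401 TPM in siGFP. In CH it had 339, 218 and 303 TPM in the double knockdown and 242, 192 and 294 TPM after siPTBP1, against 659, 349 and 534 TPM in siGFP. Knockdown and siGFP libraries did not overlap in any of the 6 comparisons. Groups without overlap were found for 9.18% of all tested genes in CY, 10.7% in NP and 7.06% in CH in the double knockdown, and for 11.4% in CY, 9.75% in NP and 7.68% in CH after siPTBP1. In CY and NP the lowest siGFP library of Ptbp1 was well above the highest knockdown library.

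The means left 25.9% of the siGFP level in CY, 27.2% in NP and 55.8% in CH in the double knockdown, and 22.4% in CY, 26.7% in NP and 47.2% in CH after siPTBP1. On the log2(TPM + 1) scale, with an SE of 0.30 for each difference, the double knockdown differed from siGFP by -1.99 in CY (limma, adjusted p = 0.00249) and -1.90 in NP (adjusted p = 0.00478). After siPTBP1 the limma differences were -2.15 in CY (adjusted p = 0.000853) and -1.89 in NP (adjusted p = 0.00375). Among the decreases of all 20611 tested genes, ordered by log2 difference, Ptbp1 stood at place 7 in the double knockdown and 9 after siPTBP1 in CY, at 25 and 24 in NP, and at 394 and 260 in CH. In CH the limma differences were -0.82 in the double knockdown (adjusted p = 0.367) and -1.05 after siPTBP1 (adjusted p = 0.16). Both became calls once the replicate number entered the fit as a block (adjusted p = 0.0303 in the double knockdown and 0.00541 after siPTBP1). A fit of the compared groups alone, which leaves few degrees of freedom, ended all 4 calls in CY and NP (adjusted p from 0.0509 to 0.473), and median-ratio scaling ended both in NP (0.0879 in the double knockdown, 0.0841 after siPTBP1). In bulk RNA, fewer transfected cells and less RNA per cell cannot be told apart.

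Within replicate numbers the remaining level varied. In the double knockdown the 3 replicates kept 39.9%, 21.3% and 18.5% of their own siGFP library in CY, 31.6%, 27.6% and 21.7% in NP and 51.4%, 62.6% and 56.7% in CH. After siPTBP1 they kept 28.7%, 21.5% and 18.1% in CY, 28.1%, 30.8% and 22.2% in NP and 36.7%, 55.0% and 55.0% in CH. Each replicate number thus kept a larger share in CH than in CY and NP under both treatments. The double knockdown did not differ from siPTBP1 in Ptbp1 by more than 0.24 on the log2 scale in any fraction (limma, adjusted p = 1 in each). Marker levels moved beside these results. The summed stem cell markers had 3415 to 4384 TPM in CY of the double knockdown and 3342 to 4092 TPM after siPTBP1, against 4304 to 4510 TPM in siGFP. In NP they had 2418 to 3616 and 2543 to 3930 TPM after the same treatments, against 3408 to 4212 TPM in siGFP, and in CH 1063 to 1933 and 1142 to 2367 TPM, against 1614 to 2412 TPM in siGFP. The primitive endoderm markers, with 1 of 4 at a mean of at least 1 TPM, summed in CY to 2.81 to 4.28 TPM in the double knockdown and 3.15 to 4.75 TPM after siPTBP1, against 1.79 to 2.70 TPM in siGFP. In CH they summed to 4.21 to 6.21 TPM in the double knockdown and 4.20 to 5.56 TPM after siPTBP1, against 2.65 to 3.98 TPM in siGFP. Knockdown and siGFP libraries thus did not overlap for these low sums in CY and CH. Of single tested genes, 9.18% in the double knockdown and 11.4% after siPTBP1 did not overlap in CY, and 7.06% and 7.68% in CH. No such share was taken for sums of genes. In NP the primitive endoderm sums overlapped, at 3.52 to 6.85 and 4.30 to 6.08 TPM, against 2.52 to 4.81 TPM in siGFP. The fibroblast markers in CH summed to 56.6 to 126 TPM in the double knockdown and 48.5 to 72.5 TPM after siPTBP1, against 81.9 to 155 TPM in siGFP. In NP they went the other way, at 39.8 to 68.8 and 38.0 to 74.1 TPM, against 30.7 to 50.1 TPM in siGFP. In CY they had 8.60 to 17.1 and 6.64 to 12.8 TPM, against 9.19 to 13.85 TPM in siGFP. The part of these markers in the result was not tested.

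Ptbp2, the paralog addressed by the added siRNA, was lower in the double knockdown than after siPTBP1 within each replicate number in CY and NP. Over all 27 libraries this difference was called in CY only, and only with the replicate block. Ptbp2 (ENSMUSG00000028134) lies on chromosome 3, 119718742 to 119784466, minus strand. In CY it had 1.45, 7.29 and 7.55 TPM in the double knockdown and 3.51, 18.9 and 19.2 TPM after siPTBP1, against 3.52, 15.0 and 15.5 TPM in siGFP. In NP it had 3.56, 12.5 and 11.3 TPM in the double knockdown and 5.66, 16.9 and 17.3 TPM after siPTBP1, against 7.81, 19.4 and 20.3 TPM in siGFP. In CH it had 23.6, 73.8 and 67.3 TPM in the double knockdown and 23.4, 76.8 and 72.3 TPM after siPTBP1, against 22.8, 91.7 and 87.8 TPM in siGFP. The groups overlapped in every fraction, with replicate 1 low under all treatments, while within each number the double knockdown was lowest in CY and NP.

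Each replicate of the double knockdown kept 41.2%, 48.6% and 48.9% of its own siGFP level of Ptbp2 in CY. In NP the same shares were 45.6%, 64.4% and 55.6%, and in CH 103%, 80.5% and 76.7%. Ptbp2 differed from siGFP by -0.93 in CY and -0.78 in NP on the log2 scale (SE 0.75 each; limma, adjusted p = 1), and with the replicate block it was called in CY (adjusted p = 0.00113) and in NP (adjusted p = 0.00714). In CH it was -0.21 and was called in neither fit (limma, adjusted p = 1, and 0.587 with the block). Set against siPTBP1 directly, Ptbp2 in the double knockdown had 39.1% of the siPTBP1 mean in CY, 68.6% in NP and 95.6% in CH. The log2 differences were -1.13, -0.51 and -0.047 (limma, adjusted p = 1 each), and with the block the one in CY was called (adjusted p = 0.00506) and those in NP and CH were not (adjusted p = 1 each). In that comparison in CY 0 of the 20611 genes were called without the block, which is 0% of them, and 1 with it, 0.00485%, and that gene was Ptbp2. Without the replicate 1 libraries of all groups the limma difference of Ptbp2 between the double knockdown and siPTBP1 in CY was -1.25 (adjusted p = 0.000671).

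With siRNA to Ptbp1 alone, the level of Ptbp2 relative to siGFP was not shown to change. The 3 replicates held 99.7%, 126% and 124% of their own siGFP level in CY, 72.5%, 87.2% and 85.2% in NP. In CH they held 102%, 83.7% and 82.3%. The log2 difference in CY was 0.20 with a 95% interval of -1.37 to 1.78 (limma, adjusted p = 1, and 0.75 with the block). With the block the 95% interval was -0.11 to 0.52.

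Ptbp3, the third paralog, was called in none of the knockdown comparisons. Ptbp3 (ENSMUSG00000028382) lies on chromosome 4, 59471868 to 59549364, minus strand. It had 2.28, 10.5 and 7.22 TPM in CY of the double knockdown and 3.27, 11.01 and 10.98 TPM after siPTBP1, against 3.67, 9.13 and 9.24 TPM in siGFP. In NP it had 5.43, 15.6 and 14.3 TPM in the double knockdown and 5.05, 15.1 and 13.9 TPM after siPTBP1, against 8.42, 19.7 and 15.3 TPM in siGFP. In CH it had 16.4, 33.6 and 30.2 TPM in the double knockdown and 24.2, 35.4 and 25.2 TPM after siPTBP1, against 18.8, 41.6 and 43.1 TPM in siGFP. The groups overlapped in all 3 fractions. The log2 differences from siGFP ran from -0.38 for siPTBP1 in NP to 0.11 for siPTBP1 in CY, with an SE of 0.54.

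**Figure D2:**
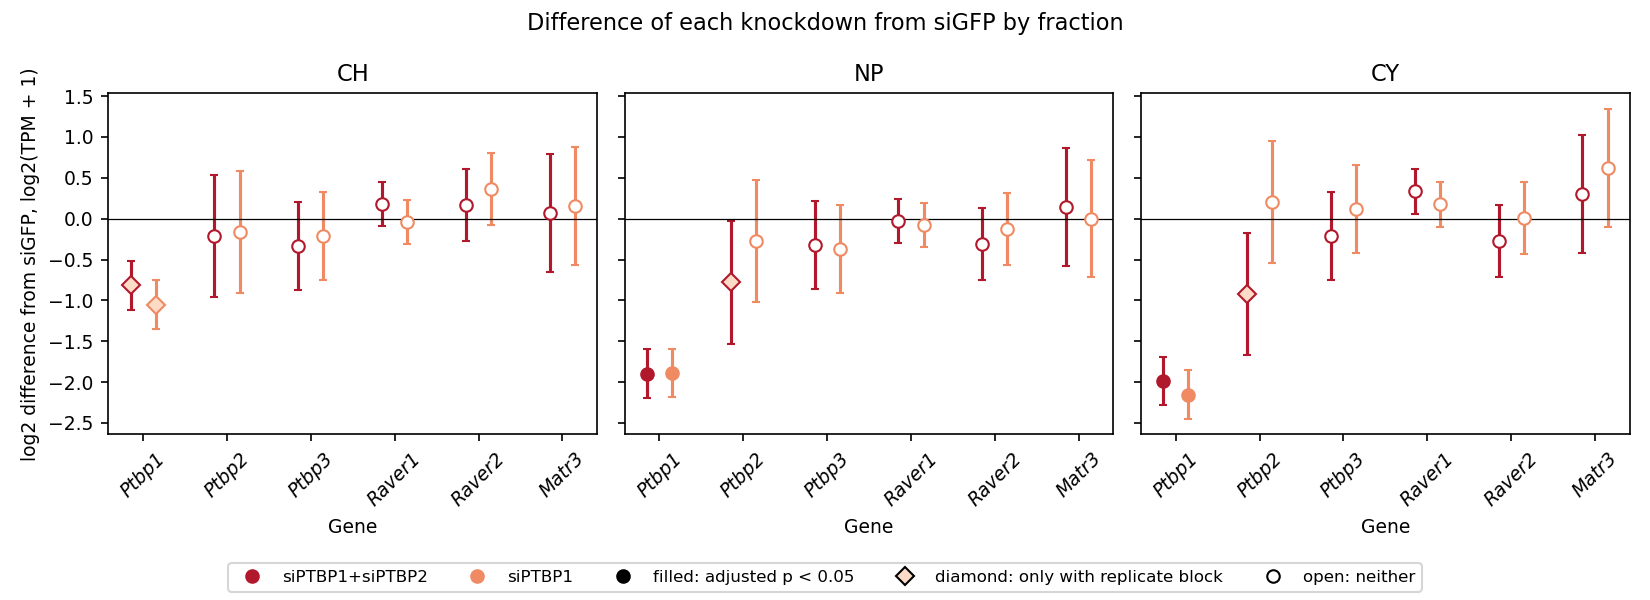
Difference of the double knockdown (left point of each pair) and siPTBP1 (right point) from siGFP on the log2(TPM + 1) scale for each gene, in CH, NP and CY, with bars of 1 SE from limma over all 27 libraries. Filled points were called at an adjusted p under 0.05, diamonds in the fit with the replicate block but not in the other, and open points in neither fit. Ptbp1 in NP and CY, between -1.89 and -2.15, is filled in both treatments.

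The share of each paralog in the summed family RNA moved with these changes. Ptbp1 was the most abundant paralog in 27 of 27 libraries. In CY it made up 98.2%, 86.4% and 88.4% of the summed TPM of the 3 paralogs in the double knockdown and 95.5%, 79.3% and 78.5% after siPTBP1, against 98.6%, 95.7% and 96.1% in siGFP. Ptbp2 made up 0.711%, 5.55% and 5.91% in the double knockdown and 2.33%, 13.1% and 13.7% after siPTBP1, against 0.692%, 2.69% and 2.43% in siGFP. Replicate 1 carried the smallest Ptbp2 share in each of these groups, and within each number the share was largest after siPTBP1.

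The summed family RNA in CY was 204, 131 and 128 TPM in the double knockdown and 151, 145 and 141 TPM after siPTBP1, against 509, 558 and 636 TPM in siGFP. The highest knockdown sum was below the lowest siGFP sum. In NP the share of Ptbp1 was 94.4%, 73.9% and 77.3% in the double knockdown and 92.7%, 73.5% and 74.1% after siPTBP1, against 96.8%, 88.0% and 91.9% in siGFP. In CH it was 89.4%, 67.0% and 75.6% in the double knockdown and 83.6%, 63.1% and 75.1% after siPTBP1, against 94.1%, 72.4% and 80.3% in siGFP. Within each number the share was higher in siGFP than after either knockdown in all 3 fractions, although the groups overlapped in all 3 fractions for the double knockdown and in NP and CH for siPTBP1, with replicate 1 the highest of each group. The order of the other paralogs changed between libraries, with Ptbp2 above Ptbp3 in 18 of 27.

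**Figure D3:**
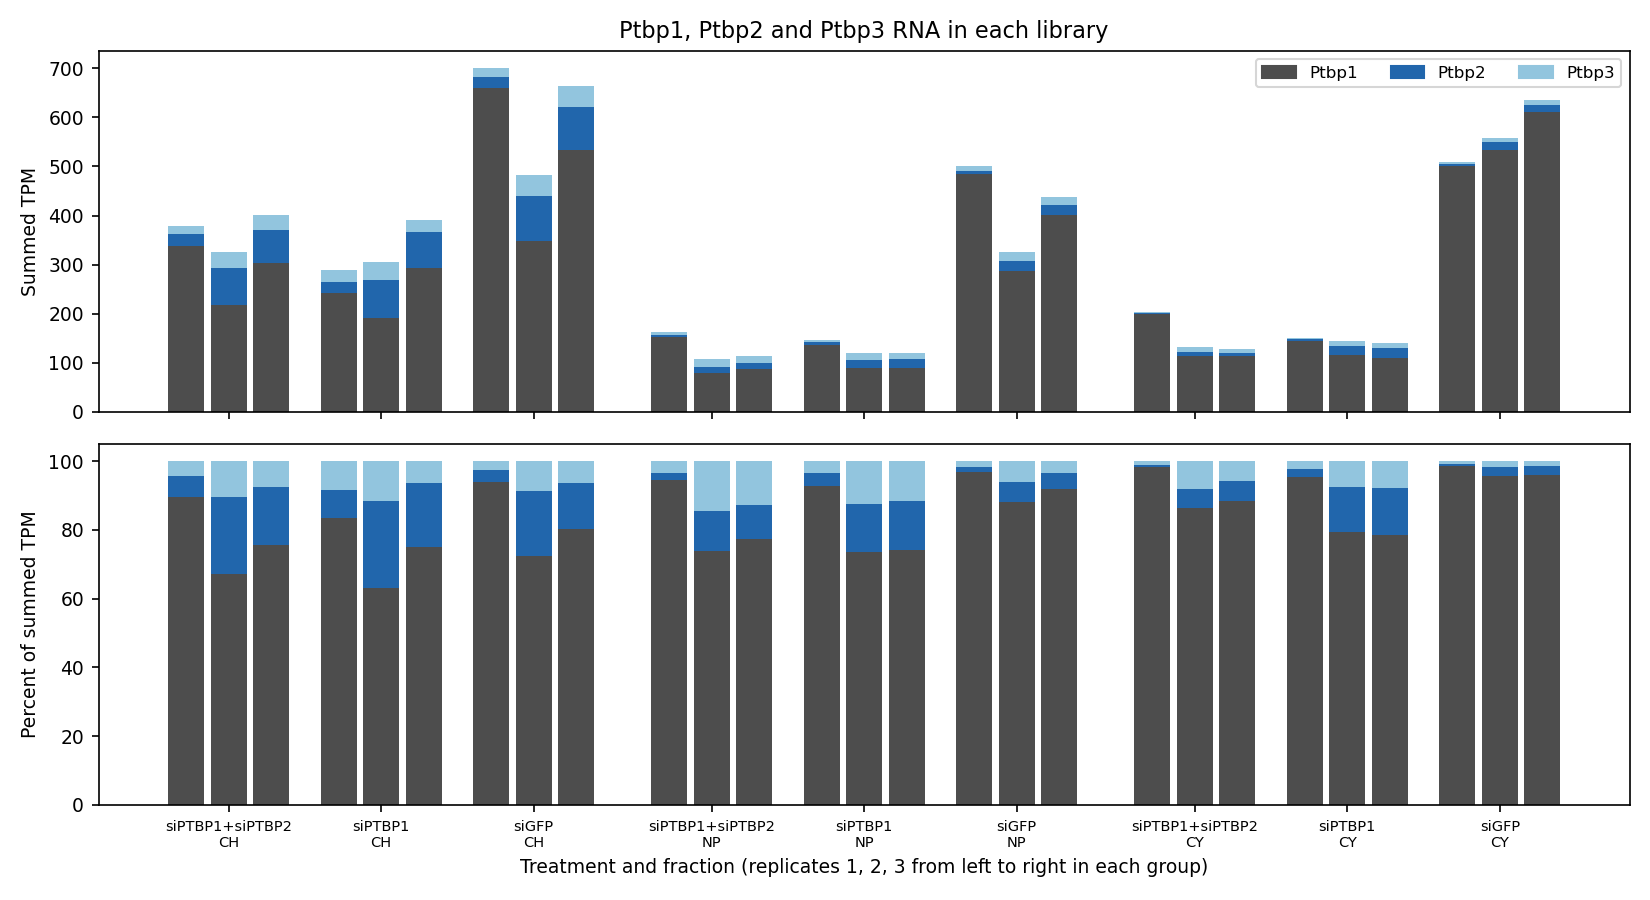
Summed TPM of Ptbp1, Ptbp2 and Ptbp3 (top) and each paralog's percent of that sum (bottom) in each library, with replicates 1, 2 and 3 from left to right in each group. Ptbp1 is the largest part of every bar, and in CY the siGFP bars reach 509 to 636 TPM against 128 to 204 TPM in the double knockdown.

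Raver1, a corepressor that binds PTBP1, was not called in any knockdown comparison. Its main row (ENSMUSG00000010205) lies on chromosome 9, 21074158 to 21092008, minus strand. In CY it had 151, 130.0 and 149.5 TPM in the double knockdown and 111, 134 and 141 TPM after siPTBP1, against 112, 107 and 122 TPM in siGFP. In NP it had 119, 61.4 and 74.9 TPM in the double knockdown and 107, 60.4 and 76.8 TPM after siPTBP1, against 104, 65.4 and 85.3 TPM in siGFP. In CH it had 178, 100.4 and 137 TPM in the double knockdown and 132, 93.7 and 124 TPM after siPTBP1, against 159, 87.7 and 119.8 TPM in siGFP. Only the double knockdown and siGFP in CY did not overlap, at 126% of the siGFP mean. Libraries that did not overlap in that comparison were found for 9.18% of all tested genes, and the log2 difference of 0.33 (95% interval -0.24 to 0.90) was not called (limma, adjusted p = 1).

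The second Raver1 row (ENSMUSG00000111497) lies on chromosome 9, 21067514 to 21091997, minus strand. It is Gm38431 in GENCODE M21, a set of read-through transcripts that cover Raver1 and Fdx1l. It was low, between 1.01 and 7.40 TPM, and averaged 6.13 ± 0.476 TPM in CH of the double knockdown, 5.84 ± 1.75 TPM after siPTBP1 and 4.997 ± 1.15 TPM in siGFP (SD, n = 3). In CY it averaged 1.50 ± 0.154, 1.98 ± 0.215 and 1.37 ± 0.326 TPM in the same order of treatments. Because both rows share exons, the division of reads between them is uncertain.

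Raver2, the paralog of Raver1, was the lowest gene of the 6 in CH. Raver2 (ENSMUSG00000035275) lies on chromosome 4, 101068983 to 101152370, plus strand. In CY it had 2.37, 10.5 and 7.70 TPM in the double knockdown and 5.22, 10.1 and 7.84 TPM after siPTBP1, against 4.15, 12.1 and 7.89 TPM in siGFP. In NP it had 3.09, 7.80 and 5.27 TPM in the double knockdown and 3.92, 8.68 and 6.01 TPM after siPTBP1, against 5.53, 8.74 and 5.79 TPM in siGFP. In CH it had 7.90, 17.9 and 12.7 TPM in the double knockdown and 14.4, 17.3 and 11.3 TPM after siPTBP1, against 6.95, 16.8 and 10.5 TPM in siGFP. The groups overlapped in every fraction, and the log2 differences of both knockdowns from siGFP ran from -0.31 to 0.36 with an SE of 0.44 (limma, adjusted p = 1 each). Raver1 was above Raver2 in 27 of 27 libraries.

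Matr3, which encodes matrin 3, was the most variable corepressor gene and was not called in any knockdown comparison. Matr3 (ENSMUSG00000037236) lies on chromosome 18, 35562138 to 35593835, plus strand, where Gm28285 overlaps it on the same strand. In CY it had 21.1, 128 and 110.1 TPM in the double knockdown and 33.6, 139 and 125 TPM after siPTBP1, against 31.8, 54.6 and 91.0 TPM in siGFP. In NP it had 44.6, 131 and 146 TPM in the double knockdown and 39.6, 114 and 141 TPM after siPTBP1, against 41.4, 131 and 117 TPM in siGFP. In CH it had 176, 456 and 276 TPM in the double knockdown and 198, 443 and 301 TPM after siPTBP1, against 142, 452 and 296 TPM in siGFP. The groups overlapped in all fractions. The difference farthest from 0 was that of siPTBP1 from siGFP in CY, where each of the 3 replicates was higher and the mean stood at 168% of siGFP. Its log2 difference of 0.62 had a 95% interval of -0.89 to 2.13 (limma, adjusted p = 1, and 0.378 with the block).

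Counted over the 6 genes in either direction, 1 (Ptbp1) was called in CY after each treatment, where 0.243% of all tested genes were called in the double knockdown and 0.228% after siPTBP1. In NP 1 of 6, again Ptbp1, was called after each treatment, against 0.155% of all tested genes in the double knockdown and 0.16% after siPTBP1. In CH 0 of 6 were called, against 0.427% of all tested genes in the double knockdown and 0.398% after siPTBP1. In each, 1 of 6 had an unadjusted p under 0.05, a threshold for which no share of all genes is given here. With the block the double knockdown had 2 of 6 called in CY and in NP (Ptbp1 and Ptbp2, both lower), against 2.65% of all genes in CY and 1.84% in NP. Its count in CH was 1 (Ptbp1), against 2.12%. With the block siPTBP1 had 1 called in each fraction (Ptbp1), against 1.83% of all genes in CY, 1.88% in NP and 2.45% in CH. Between the double knockdown and siPTBP1, 0 of 6 were called in CH, where 0.107% of all genes were called and 0.0825% with the block, and 0 of 6 in NP, where 0.00485% were called in both fits. None of the 6 had an unadjusted p under 0.05 in CH or NP of that comparison without the block. The 2 knockdowns share the siGFP libraries, so their differences from siGFP are not independent.

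The ratio of corepressor RNA to Ptbp1 RNA was higher after both treatments, as the levels of Raver1 stayed near those of siGFP while Ptbp1 was lower. Raver1 over Ptbp1 averaged 1.07 ± 0.291 in CY of the double knockdown and 1.07 ± 0.266 after siPTBP1, against 0.207 ± 0.0130 in siGFP (SD, n = 3). In NP it averaged 0.804 ± 0.0487 in the double knockdown and 0.777 ± 0.0901 after siPTBP1, against 0.219 ± 0.00789 in siGFP. In CH it averaged 0.478 ± 0.0400 in the double knockdown and 0.486 ± 0.0618 after siPTBP1, against 0.239 ± 0.0135 in siGFP. The lowest knockdown library was above the highest siGFP library in each fraction, and in siGFP the ratio lay between 0.199 and 0.251 in all 9 libraries. Raver1 was above Ptbp1 in 4 of 27 libraries, all of them replicates 2 and 3 of the knockdowns in CY.

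Matr3 over Ptbp1 was more variable. In CY it was 0.105, 1.13 and 0.974 in the double knockdown and 0.234, 1.21 and 1.13 after siPTBP1, against 0.0635, 0.102 and 0.149 in siGFP. In NP it was 0.292, 1.65 and 1.68 in the double knockdown and 0.292, 1.28 and 1.58 after siPTBP1, against 0.0855, 0.455 and 0.292 in siGFP. In CH it was 0.518, 2.09 and 0.912 in the double knockdown and 0.819, 2.31 and 1.03 after siPTBP1, against 0.216, 1.29 and 0.555 in siGFP. Within each number both knockdowns were above siGFP in all 3 fractions, and replicate 1 was the lowest of each group.

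**Figure D4:**
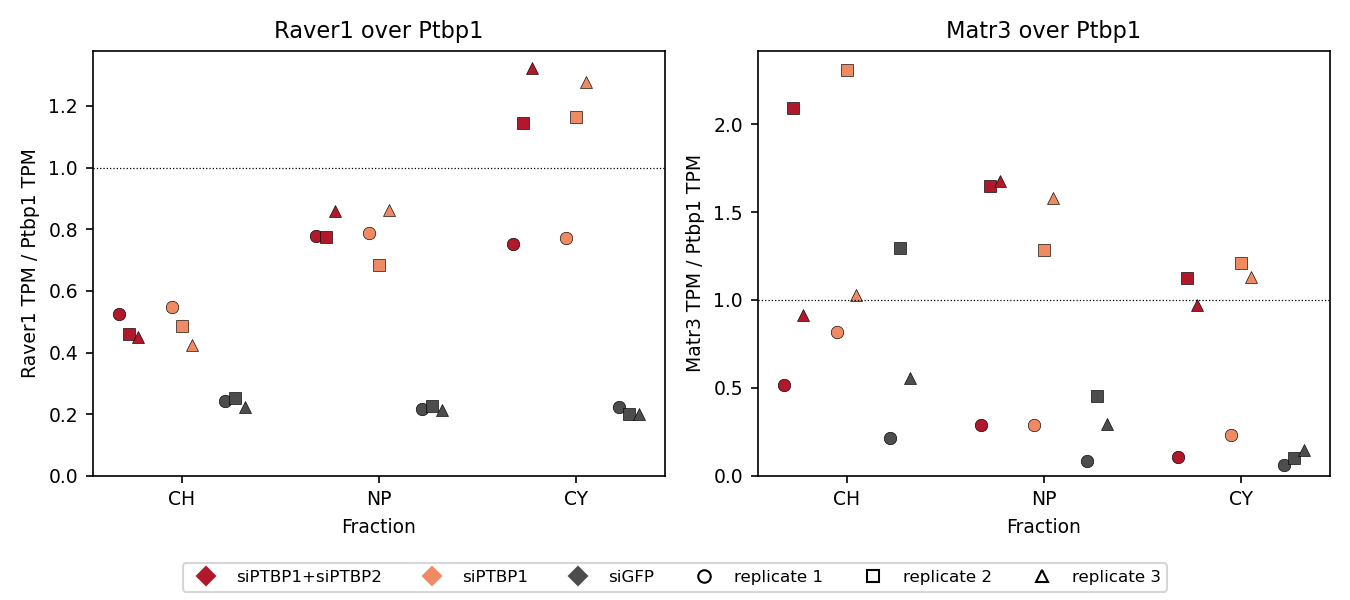
Ratio of Raver1 TPM (left) and Matr3 TPM (right) to Ptbp1 TPM in each library, by fraction and treatment, with the replicate number as the symbol and a dotted line at 1. For Raver1 the siGFP libraries lie between 0.199 and 0.251 in every fraction, below all knockdown libraries, while for Matr3 replicate 1 lies lowest in each group.

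Between fractions the 6 genes stood at different distances from the median of all tested genes, and these distances were not tested. Most genes had higher TPM in CH than in CY, with a median log2 difference over all tested genes of 1.04 in the double knockdown, 0.97 after siPTBP1 and 0.95 in siGFP, so the differences below are read against these medians. Median-ratio scaling lowered the medians to 0.36, 0.38 and 0.34 in the same order, and quantile normalization brought them to about 0. Ptbp2 RNA stood above the median, at 3.17 in the double knockdown (limma, adjusted p = 0.000821), 2.09 after siPTBP1 (adjusted p = 0.0185) and 2.46 in siGFP (adjusted p = 0.00674). Relative to the median this is 2.13 in the double knockdown, 1.11 after siPTBP1 and 1.50 in siGFP. Ptbp3 differed between CH and CY by 1.97, 1.76 and 2.09 in the same order of treatments (limma, adjusted p = 0.00279, 0.00668 and 0.00191), and Matr3 by 2.05, 1.82 and 2.28 (limma, adjusted p = 0.0157, 0.0315 and 0.00858). The CH and CY libraries of these 3 genes did not overlap in any treatment, which was so for 65.7% of all tested genes in the double knockdown, 70.4% after siPTBP1 and 66.8% in siGFP.

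Raver1 lay below the median. Its CH and CY libraries overlapped in all treatments, and its log2 difference was -0.088 in the double knockdown, -0.15 after siPTBP1 and 0.067 in siGFP (limma, adjusted p = 0.783, 0.644 and 0.842), with 95% intervals within -0.72 to 0.64. With median-ratio scaling it was lower in CH, by -1.26, -1.14 and -0.998 in the same order (limma, adjusted p = 0.00602, 0.0121 and 0.0261). Raver2 stood near the median in the double knockdown and after siPTBP1, at 0.92 and 0.83, and at 0.48 in siGFP. It was not called (limma, adjusted p = 0.0691, 0.102 and 0.346). With the block 16340 of the 20611 tested genes were called in the double knockdown, 16007 after siPTBP1 and 15859 in siGFP. Raver2 was among them in all 3 treatments (adjusted p = 0.0005, 0.0013 and 0.0444). A fit of the compared groups alone called it after siPTBP1 (adjusted p = 0.0403), as did leaving out replicate 1 of CH (0.0334) or replicate 2 of CY (0.0212) in the double knockdown, and quantile normalization turned it to -0.91 in siGFP (adjusted p = 0.0114).

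Ptbp1 differed between CH and CY by treatment. Its log2 difference was 1.04 in the double knockdown (limma, adjusted p = 0.00409) and 0.96 after siPTBP1 (adjusted p = 0.0073), at the all-gene median in both, and -0.14 in siGFP (adjusted p = 0.7), which is 1.09 below the median. The libraries of the fractions did not overlap in the knockdowns and overlapped in siGFP. No overlap between CH and CY was also seen for 65.7% of all tested genes in the double knockdown and 70.4% after siPTBP1. With median-ratio scaling the differences were -0.14 and -0.035 in the knockdowns and -1.21 in siGFP (adjusted p = 0.0205), so the direction within the knockdowns depends on scaling. The test of the gap between the knockdowns and siGFP, the difference of the knockdown effect between CH and CY, gave 1.17 in the double knockdown (SE 0.42, 95% interval 0.29 to 2.06) and 1.10 after siPTBP1 (SE 0.42, 95% interval 0.22 to 1.98). Median-ratio scaling gave 1.07 and 1.17, and quantile normalization 0.75 and 0.62. Each of the 3 replicates had this direction under both treatments. It did not pass the adjustment over all genes (limma, adjusted p = 1 in both, and 0.0708 and 0.17 with the block). By unadjusted p under 0.05 Ptbp1 was the only one of the 6 genes in each treatment. The share of all tested genes under that unadjusted threshold is not given here, so this count has no background. Over all genes 0.0582% were called for this difference in the double knockdown and 0.0437% after siPTBP1, and 0 of the 6 genes were among them. For the same difference between NP and CY 0.00485% of all genes were called in each treatment, and 0 of the 6 genes were called or had an unadjusted p under 0.05 in limma.

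Counted together, 4 of 6 genes were called between CH and CY in the double knockdown and after siPTBP1 (Ptbp1, Ptbp2, Ptbp3 and Matr3, all higher in CH). In either direction 69.6% of all tested genes were called in the double knockdown and 66.6% after siPTBP1. In siGFP 3 of 6 were called (Ptbp2, Ptbp3 and Matr3, higher in CH), against 66% of all tested genes. These shares are near the background or below it. Median-ratio scaling ended the calls of Ptbp3 (0.93 in the double knockdown and 0.84 after siPTBP1, adjusted p = 0.0598 and 0.088) and Matr3 (0.89 and 0.82, adjusted p = 0.182 and 0.22) in both knockdowns, and of Ptbp2 after siPTBP1 (1.15, adjusted p = 0.123). Quantile normalization ended that of Ptbp3 in the double knockdown (adjusted p = 0.195) and all 4 after siPTBP1 (from 0.0582 to 0.275). In siGFP the first ended the calls of Ptbp2 and Matr3, and the second those of Ptbp2 and Ptbp3. Leaving out single CH or CY libraries ended the calls of Ptbp2 after siPTBP1 and in siGFP, of Ptbp3 after siPTBP1, and of Matr3 in both knockdowns (adjusted p up to 0.191).

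NP stood closer to CY. The median log2 difference of NP from CY over all genes was 0.12 in the double knockdown, 0.070 after siPTBP1 and 0.15 in siGFP. Raver1 was lower in NP than in CY by -0.80 in the double knockdown (limma, adjusted p = 0.0407), by -0.69 after siPTBP1 (0.0891, and 0.00526 with the block) and by -0.44 in siGFP (0.386, and 0.0809 with the block), with no overlap of the libraries in any treatment. Such a lack of overlap was found for 33.1% of all tested genes in the double knockdown, 36% after siPTBP1 and 33.6% in siGFP. The call of Raver1 in the double knockdown was lost when any of 5 of the 6 libraries was left out (adjusted p up to 0.23). It was lost too without the filter on low values (0.0753), in the compared groups alone (0.138), with quantile normalization (0.113) and without mitochondrial RNA and Mir6236 (0.147). Raver1 was 1 of the 6 genes, against 20% of all tested genes called in that treatment. After siPTBP1 and in siGFP 0 of the 6 were called, against 17.5% and 12.8% of all tested genes. Of the 6, 1 and 0 had an unadjusted p under 0.05, for which no share of all genes is given here. Ptbp1 was lower in NP than in CY by -0.42, -0.25 and -0.52 in the double knockdown, after siPTBP1 and in siGFP without a call (limma, adjusted p = 0.376, 0.653 and 0.335). Ptbp2 and Ptbp3 were higher in NP by 0.71 and 0.80 in the double knockdown and by 0.56 and 0.90 in siGFP. The blocked fit called 7878 of the 20611 tested genes in the double knockdown, 7357 after siPTBP1 and 5830 in siGFP. Ptbp2 and Ptbp3 were among them in the double knockdown and in siGFP (limma, adjusted p = 0.000637, 0.00284, 0.00633 and 0.00134). Without replicate 1 of all groups and without a block they were called too (adjusted p = 0.00052 and 0.013 in the double knockdown, 0.0194 and 0.00733 in siGFP).

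Between the nuclear fractions, CH was higher than NP for all 6 genes in every treatment. The differences ran from 0.71 for Raver1 to 2.46 for Ptbp2 in the double knockdown, from 0.54 for Raver1 to 2.00 for Ptbp2 after siPTBP1, and from 0.38 for Ptbp1 to 1.89 for Ptbp2 in siGFP, beside all-gene medians of 0.83, 0.81 and 0.68. The limma calls were 4 of 6 in the double knockdown (58.2% of all tested genes were called in either direction), 5 of 6 after siPTBP1 (57.1%) and 1 of 6, Ptbp2, in siGFP (51.5%). With the block 6 of 6 were called in each knockdown and 5 of 6 in siGFP, all but Ptbp1. The same fit called 14864 of the 20611 tested genes in the double knockdown, 14714 after siPTBP1 and 13806 in siGFP. Median-ratio scaling ended 3 of the 4 calls in the double knockdown, where Raver1 turned to -0.11, all 5 after siPTBP1 (adjusted p from 0.134 to 0.501) and that of Ptbp2 in siGFP (0.118). Without mitochondrial RNA and Mir6236, the calls of Raver1 and Raver2 were lost in the double knockdown (adjusted p = 0.167 and 0.106), those of Ptbp2, Ptbp3, Raver2 and Matr3 after siPTBP1 (from 0.054 to 0.0925), and that of Ptbp2 in siGFP (0.0641). Leaving out single libraries ended the call in at least 1 fit for 3 of the 4 genes in the double knockdown, 4 of the 5 after siPTBP1 and the 1 in siGFP, in each case all but Ptbp1 where it was called (adjusted p up to 0.205).

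**Figure D5:**
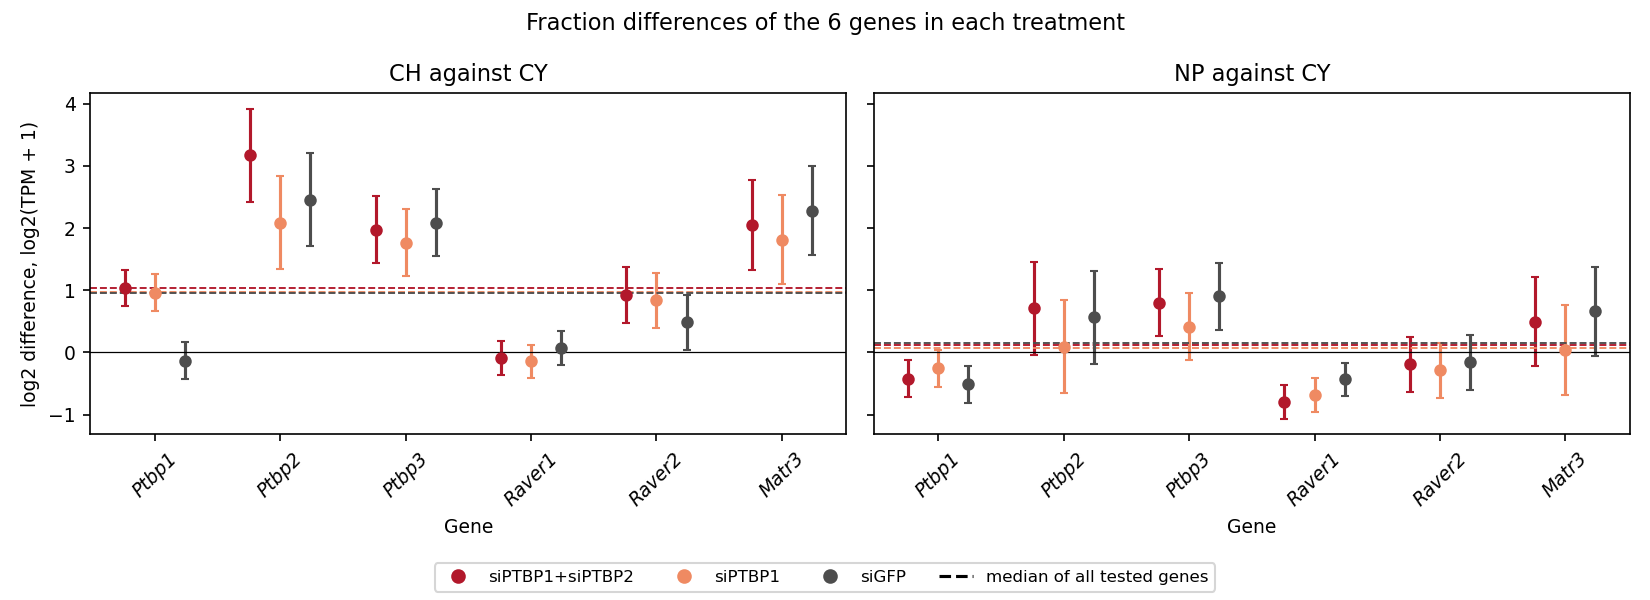
Log2(TPM + 1) difference of CH from CY (left panel) and of NP from CY (right panel) for each gene in the double knockdown, siPTBP1 and siGFP, with bars of 1 SE from limma and dashed lines at the median over all 20611 tested genes in each treatment. In the left panel Ptbp1 lies on the median line in both knockdowns and at -0.14 in siGFP, Ptbp2, Ptbp3 and Matr3 lie above the lines and Raver1 below them.

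RNA-binding proteins known to act with, beside or against PTBP1 were followed as a list of 30 genes (among them Hnrnpl, Hnrnpk, Sfpq, Rbfox2, Qk, Mbnl1, Srrm4 and U2af2), all of which were tested. In limma 0 of 30 were called in either direction in each of the 6 comparisons with siGFP, where 0.155% to 0.427% of all genes were called. Their median log2 differences were 0.055 in CH, -0.24 in NP and -0.031 in CY in the double knockdown, and 0.14, -0.22 and 0.14 after siPTBP1, against all-gene medians between -0.014 and 0.087. With the block 1 of 30 was called higher in CY after each treatment. The blocked fit called 2.65% of all tested genes in CY in the double knockdown and 1.83% after siPTBP1, so this count is near the background. The gene called was Celf1, a binder of GU-rich RNA. It averaged 121 ± 43.6 TPM in CY of the double knockdown and 138 ± 15.8 TPM after siPTBP1, against 70.1 ± 24.1 TPM in siGFP. Its log2 differences were 0.77 (limma, adjusted p = 0.454, and 0.0497 with the block) and 1.02 (adjusted p = 0.135, and 0.01 with the block). Srrm4, a neuronal splicing activator, averaged 2.51 ± 0.0265 TPM in CH of the double knockdown, against 1.52 ± 0.391 TPM in siGFP (log2 difference 0.49; limma, adjusted p = 0.413). Elavl1, a binder of AU-rich RNA, averaged 56.9 ± 12.0 TPM in NP of the double knockdown, against 88.1 ± 9.65 TPM in siGFP (-0.64; adjusted p = 0.969). Fubp1, a single-strand binder, had an adjusted p of 1 in all 6 comparisons.

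Genes with exons or introns that PTBP1 is known to control were followed as a second list of 20, which includes Ptbp1 and Ptbp2 themselves, and 19 were tested. Like the first list, it was chosen with earlier results of these data known. Its counts beside the shares of all genes are therefore a description and no test of the list. In CY 2 were called higher and 2 lower in the double knockdown, and 3 higher and 2 lower after siPTBP1, where 0.243% and 0.228% of all tested genes were called. In NP 1 was higher and 2 were lower after each treatment (0.155% and 0.16% of all genes), and in CH 0 were called in either (0.427% and 0.398%). With the block the counts in CY were 6 higher and 4 lower in the double knockdown and 6 higher and 2 lower after siPTBP1 (2.65% and 1.83% of all genes). In NP they were 4 higher and 4 lower in the double knockdown and 4 higher and 3 lower after siPTBP1 (1.84% and 1.88%), and in CH 2 higher and 1 lower in the double knockdown and 1 of each after siPTBP1 (2.12% and 2.45%). The genes counted as lower with the block include those that the siRNA addressed. They are Ptbp1 in every fraction after both treatments, and Ptbp2 in CY and NP of the double knockdown. Without the block Ptbp1 was 1 of the genes called lower in CY and NP. The other was Flna, a filamin named here after its values were seen, at -1.46 in CY of the double knockdown and -1.66 after siPTBP1 (limma, adjusted p = 0.0295 and 0.00948). The medians of the list in CY were 0.20 in the double knockdown and 0.20 after siPTBP1, against 0 and 0.057 over all genes.

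Vamp2, a vesicle SNARE, rose in CY to 55.1 ± 11.3 TPM in the double knockdown and 53.4 ± 14.0 TPM after siPTBP1, against 16.5 ± 3.48 TPM in siGFP (log2 differences 1.68 and 1.62; limma, adjusted p = 0.00176 and 0.00196). Sv2a, a synaptic vesicle protein, rose in NP to 17.2 ± 1.46 TPM in the double knockdown and 15.8 ± 2.62 TPM after siPTBP1, against 5.64 ± 1.56 TPM in siGFP (1.48 and 1.35; limma, adjusted p = 0.0023 and 0.00434). Tpm1, a tropomyosin named after its values were seen, was the gene called higher only in the siPTBP1 comparison in CY, at 307 ± 73.5 TPM after siPTBP1 against 72.1 ± 16.5 TPM in siGFP (2.07; limma, adjusted p = 0.00948). In the double knockdown it had 214 ± 129 TPM (1.34; adjusted p = 0.191, and 0.025 with the block), and the difference between both treatments was not called. In CY the neuronal markers summed to 198 to 286 TPM in the double knockdown and 186 to 198 TPM after siPTBP1, against 168 to 207 TPM in siGFP, with 4 of 5 at a mean of at least 1 TPM, and their part in these results was not tested.

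For each of the 6 genes the tested genes with the most similar pattern over the 27 libraries were looked up among 9946 with a mean of at least 5 TPM, by Pearson's r of log2(TPM + 1). These libraries share fractions, treatments and replicate numbers, so r is a description. For Ptbp1 the nearest were Mov10 (r = 0.968), which encodes an RNA helicase, Dnmt3b (0.897), which encodes a de novo DNA methyltransferase, and Stk10 (0.887), which encodes a kinase. Mov10 averaged 31.4 ± 14.1 TPM in CY of the double knockdown and 26.1 ± 5.19 TPM after siPTBP1, against 95.5 ± 10.9 TPM in siGFP. In CH it averaged 54.9 ± 15.0 TPM in the double knockdown and 45.7 ± 6.22 TPM after siPTBP1, against 112 ± 39.6 TPM in siGFP. For Ptbp2 the nearest were Herc4 (0.973), Tgs1 (0.972) and Ercc6l2 (0.972), and for Ptbp3 Ubxn7 (0.984), Vkorc1l1 (0.983) and Slc25a36 (0.982). For Raver1 they were Atxn7l3 (0.959), Ppp6r1 (0.955) and Tfe3 (0.937), for Raver2 Uap1 (0.974), Fam76a (0.971) and Grpel2 (0.965), and for Matr3 Trim33 (0.987), Klhl7 (0.985) and Ctdspl2 (0.985). Among the 6 genes themselves Ptbp2, Ptbp3 and Matr3, all low in replicate 1 and high in CH, had r between 0.931 and 0.954 with each other, while Ptbp1 had 0.268 with Ptbp2 and 0.0258 with Matr3. Raver2, lowest in replicate 1 in 8 of 9 groups, had 0.841 with Ptbp2, 0.820 with Ptbp3 and 0.843 with Matr3.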

How the data were processed

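Stranded polyA+ RNA libraries of 3 treatments and 3 fractions were analysed, 3 replicates each. The authors deposited 1 table of TPM per gene, which per the submitters' processing notes was made with STAR and kallisto on mm10. Versions, the annotation release and how transcripts were summed are not given in the sources used here. TPM keeps no depth, so no counting interval is given.

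The 20611 genes that reached 1 TPM in 3 or more libraries entered a limma fit (3.58.1, R 4.3.3; trend, robust, two-sided) of log2(TPM + 1), with 9 group means and 18 residual degrees of freedom. P-values were adjusted by Benjamini-Hochberg over all tested genes, and called means an adjusted p under 0.05. Log2 differences on this scale understate changes of low genes. The fit was tested on simulated data with independent noise in each library, which does not cover deviations shared by a replicate number. Coordinates and exon sequences come from GENCODE M21.

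The labels give replicate numbers without their meaning, and the pairing used here comes from the values. Over 108 pairs with the same number, deviations from group means correlated by at least 0.130 (median 0.365). Other pairs had a median of -0.213 and reached 0.286, so the ranges overlap. Deviations cancel within each group, so the medians of both sets are not independent. The blocked fit (16 residual degrees of freedom) is an alternative, as are other pseudocounts, filters, scalings, fits of the compared groups alone and left-out libraries. No library was a copy of another.

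The members and gene lists were chosen with earlier results of these data known. From each list up to 4 genes with the smallest adjusted p over the comparisons with siGFP are named (1 gene of the rule is not reported here), and for each member the 3 most correlated genes with a proper symbol.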

Additional observations from a re-analysis of the deposited data

How the results depend on the processing

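The replicate block, which pairs libraries of the same number, turned 20 log2 differences of the 6 genes into calls. Ptbp1 became a call in CH at -0.82 in the double knockdown and -1.05 after siPTBP1. Ptbp2 did in the double knockdown at -0.78 in NP and -0.93 in CY against siGFP, and -1.13 in CY against siPTBP1. For CH against CY it was Raver2, at 0.92 in the double knockdown, 0.83 after siPTBP1 and 0.48 in siGFP. For NP against CY they were Ptbp2 at 0.71 and Ptbp3 at 0.80 in the double knockdown and at 0.56 and 0.90 in siGFP. Raver1 joined them at -0.69 after siPTBP1. For CH against NP they were Ptbp3 and Matr3 in the double knockdown, Raver1 after siPTBP1, and Ptbp3, Raver1, Raver2 and Matr3 in siGFP. The block ended no call of the 6 genes. Over all tested genes it also raised the number of calls in each of these comparisons between fractions. A fit of the compared groups alone ended the calls of Ptbp1 at -1.90 (double knockdown, NP), -1.89 (siPTBP1, NP), -1.99 (double knockdown, CY) and -2.15 (siPTBP1, CY). Median-ratio scaling ended those at -1.82 in NP under both treatments. It turned Ptbp1 to -0.14 in the double knockdown and -0.035 after siPTBP1 for CH against CY, Raver1 to -0.998 for CH against CY in siGFP and Raver1 to -0.11 for CH against NP in the double knockdown. In siGFP it made Ptbp1 a call at -1.21 and ended those of Ptbp2 at 1.46 and Matr3 at 1.22 for CH against CY. Quantile normalization turned the read-through Raver1 row to -0.16 in the double knockdown, -0.39 after siPTBP1 and -0.21 in siGFP for CH against CY and to -0.040 for CH against NP in siGFP. It turned Raver2 to -0.91 and ended the calls of Ptbp2 at 1.39 and Ptbp3 at 0.86 for CH against CY in siGFP. The cause of these changes was not tested.

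Fits that left out each library in turn, or replicate 1 of all groups, gave 1.84 to 3.10 for Ptbp2 in CH against CY of siGFP. That call was lost without siGFP CY replicate 1. These fits gave -0.75 to -0.31, -0.052 to 0.98 and 0.53 to 1.22 for Ptbp1, Ptbp2 and Ptbp3 in NP against CY of siGFP. The -0.75 of Ptbp1 came from the fit without replicate 1 of all groups. For Ptbp2 in the double knockdown they gave -1.54 to -0.33 in CY and -1.19 to -0.28 in NP against siGFP, and -1.85 to -0.54 in CY against siPTBP1. Without replicate 1 of all groups Ptbp2 was called in the double knockdown at -0.95 in CY and -0.69 in NP against siGFP and at -1.25 in CY against siPTBP1, and Ptbp1 at -0.75, Ptbp2 at 0.36 and Ptbp3 at 0.85 in NP against CY of siGFP. The 4 calls of Ptbp1 in CY and NP held in every such fit, with adjusted p up to 0.0441. The number of genes called per comparison with siGFP was 32 to 88, against 377 to 547 with the block, 25 to 391 without the filter, 12 to 53 with the stricter filter of 9 libraries, 0 to 24 with the compared groups alone, 40 to 68 with median-ratio scaling, 31 to 67 with quantile normalization, 28 to 73 with a pseudocount of 0.1, 37 to 70 without mitochondrial RNA and Mir6236, and 93 to 198 without replicate 1. Depth limits are unknown, since TPM keeps none.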
